A study of Rattus norvegicus with 6 samples.

Results

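The miRNAs described here are those of the rat miR-31 locus, miR-31a-5p, miR-31a-3p and miR-31b. They were found by name among the 758 miRNAs of the array and are read by 6 probes, 2 for each miRNA. Both arms of miR-31a were chosen for the rise of their signals after infarction on these same arrays, so the difference between the groups is given as a description and without a test. The data come from 6 Agilent arrays of rat miRNAs with 1 dye, 3 from the control group and 3 from the model group, 1 rat per array. All were male Sprague–Dawley rats studied 4 weeks after chest surgery. In the model group a left coronary branch (the anterior descending one) was tied off to produce a myocardial infarction, and the tissue came from the margin of the infarct. In the control group the thread was passed without tying (sham surgery), and the labels give the tissue as myocardium. The place in the heart and the infarction therefore cannot be told apart between the groups, and in bulk tissue a change in the share of a cell type cannot be told apart from a change in the RNA of each cell.

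A miRNA is cut from a hairpin-shaped precursor, which yields 1 strand from each arm, named 5p and 3p. One strand is loaded into the silencing complex, where its seed (bases 2 to 8) pairs with target messenger RNAs, and the other strand is usually degraded. Outside the heart, miR-31 is best known from epithelia, T cells and tumours, and its gene lies near Cdkn2a, a cell cycle inhibitor gene.

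The mature sequences show what each probe pair can report on. They are from RefSeq (build GRCr8), 5′ to 3′, with the seed in capitals.
rno-miR-31a-5p: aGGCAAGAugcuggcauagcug
rno-miR-31a-3p: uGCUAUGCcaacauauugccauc
rno-miR-31b: cUAUGCCAgcaucuugccu
The strands of miR-31a are 22 and 23 bases long and miR-31b is 19. MiR-31a-5p lies at chr5:108714906-108714927 and miR-31a-3p at chr5:108714869-108714891, both on the minus strand in the gene Mir31. MiR-31b lies at chr5:108714909-108714927 on the plus strand, in the gene Mir3554, and is the exact reverse complement of bases 1 to 19 of miR-31a-5p. Its probes therefore read the opposite strand of the same DNA. Among the 724 mature rat miRNAs of the table, 0 others share the seed of miR-31a-5p, 0 that of miR-31a-3p and 0 that of miR-31b. In the RefSeq gene table of GRCr8, the coordinates of Mir31 lie within those of the gene LOC130062807, whose strand was not compared. The nearest genes outside it are Ifne, an interferon gene, and LOC130062808. The hairpin of Mir31, at chr5:108714849-108714954 on the minus strand, is shown to place both arms, which are in capitals.
Mir31 hairpin: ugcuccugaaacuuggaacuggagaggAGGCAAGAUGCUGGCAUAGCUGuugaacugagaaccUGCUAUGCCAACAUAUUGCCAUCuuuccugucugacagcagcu

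Between 206 and 222 miRNAs were detected on each array, and 0 spots were saturated. The slide and the scan time were the same for all of them. Row 1 of that slide held the control arrays together with model array 1, and row 2 held model arrays 2 and 3. Here a probe is detected when its total signal is over 3 times the error that the scanner software gives for it, and the signal of a miRNA is the sum over its detected probes, in scanner units with the background subtracted.

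The expression level of miR-31a-5p, the 5p arm, was low in every control rat and higher in every model rat. Its summed signal was 5.77, 12.8 and 4.04 on control arrays 1 to 3, against 71.4, 138 and 84.5 on model arrays 1 to 3. The lowest model array was several times brighter than the highest control array, and the groups did not overlap. The sums were then expressed as log2 of multiples of each array's 75th percentile, taken over the 198 miRNAs that all 6 arrays detected. On that scale the control rats averaged -4.57 ± 0.65 (SD, n = 3) and the model rats -0.995 ± 0.51 (SD, n = 3), a difference of 3.57, or 11.9-fold. Its standard error in limma was 0.40, which is moderated towards the spread of all miRNAs compared. The difference was the largest among the 198 miRNAs. The next was miR-199a-5p, with 1.95, and the median of all 198 was -0.15, so that miR-31a-5p stood 3.72 above it. That median ran from -0.27 to 0.092 with other scalings, and was 0.15 with the total signals that the authors deposited. After background correction by normexp with an offset of 50, the difference was 1.02 and ranked 3.

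Part of that fold came from the way probes enter the sum. Both probes of miR-31a-5p were detected on the 3 model arrays and on control array 2, and the dimmer one was not detected on control arrays 1 and 3. The brighter probe, A_26_P00001262, read 5.77, 8.82 and 4.04 in the control rats, against 47.9, 93.5 and 56.8 in the model rats. The dimmer probe, A_26_P00001263, read 2.78, 3.95 and 1.44, against 23.5, 44.5 and 27.7. With either probe, each model array was above each control array, by 5.43-fold or more with the brighter and by 5.95-fold or more with the dimmer. The brighter probe alone, scaled as above, differed by 3.18 on the log2 scale, or 9.08-fold. The dimmer probe was detected on 1 of 3 control arrays, so no fold between group means is given for it. With all probes summed, detected or not, the difference was 3.24, or 9.45-fold. On control array 1 the signal of the dimmer probe was 2.84 times its error, just short of the limit, while on control array 2 it was 3.81 times.

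**Figure D1:**
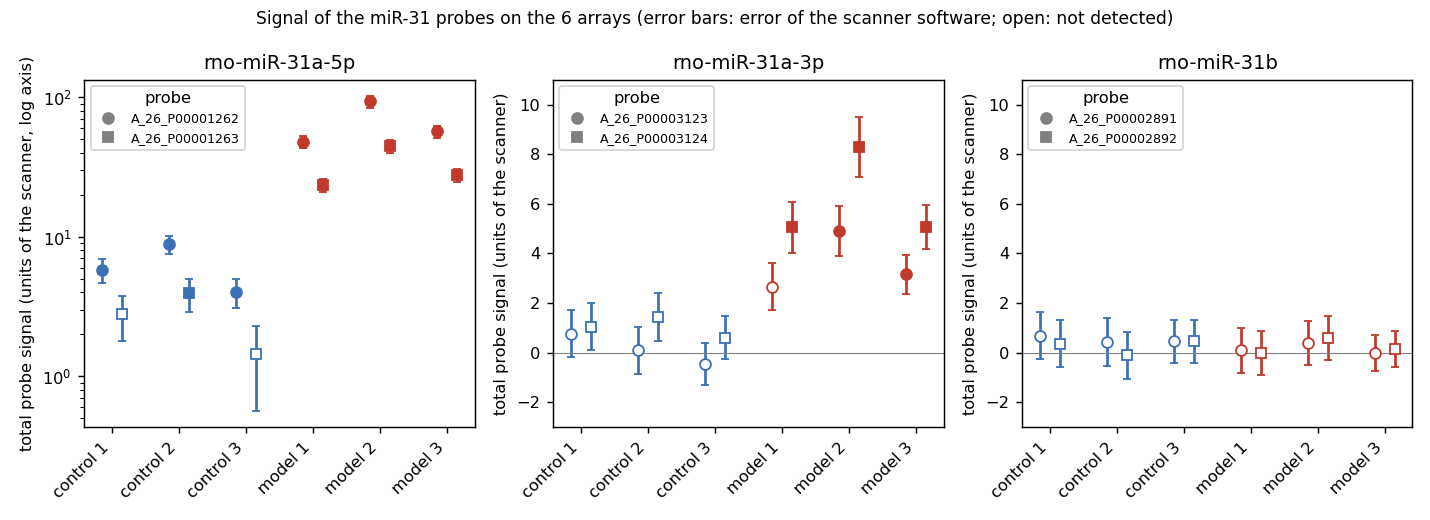
Total signal of the 2 probes of each miR-31 miRNA on the 6 arrays, in scanner units, with a log axis for miR-31a-5p and linear axes for miR-31a-3p and miR-31b; bars are the error given by the scanner software, filled points are detected probes and open points are not. Both miR-31a-5p probes are higher on every model array, the miR-31a-3p probes are detected on model arrays only, and the miR-31b probes stay near 0 on all arrays.

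MiR-31a-3p, the other strand of the same hairpin, was detected on 0 of 3 control arrays and on 3 of 3 model arrays. Its summed signal was 5.05, 13.2 and 8.23 on model arrays 1 to 3. Summing both probes whether detected or not gave 1.79, 1.51 and 0.13 for the control rats, against 7.71, 13.2 and 8.23 for the model rats, so the groups did not overlap on that measure either. The brighter probe, A_26_P00003124, read 1.04, 1.43 and 0.59 in the control rats, under its limits there of 2.84, 2.91 and 2.60, against 5.05, 8.28 and 5.08 in the model rats. The dimmer probe, A_26_P00003123, read 0.75, 0.083 and -0.46, against 2.65, 4.91 and 3.15. Neither probe was detected in a control rat. On model array 1 the dimmer probe stood at 2.83 times its error and was not counted as detected.

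A fold change of miR-31a-3p can only be bounded. The model rats stood 4.45-fold above a control level set, on each array, at the higher of the lowest signal of any detected miRNA and the summed probes of miR-31a-3p. That lowest signal, between 1.38 and 1.60 on the control arrays, came from miR-874-3p and miR-30b-3p, whose dimmest probes have 4 spots. The miR-31a probes have 8 spots, and the median error over the array design was 0.94 for probes with 8 spots and 0.45 for those with 4. Against 3 times the error of its own brighter probe on the control arrays, a limit chosen after the values were seen, the model rats were at least 1.82-fold higher by that probe. The 4.45-fold is thus no lower bound by the error of these probes. With the control arrays of both at the floor, a log2 level of -6.50 that stands for miRNAs below the limit of detection, the difference of miR-31a-3p was 1.99 and that of miR-222-3p, likewise undetected in the control rats, was 2.49, so miR-31a-3p was not the most raised miRNA after miR-31a-5p on that scale.

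For both arms, the lowest model array exceeded the highest control array. The same was true of 16.4% of the 214 miRNAs kept for the comparison, those found on all 3 arrays of one group or the other, or 15.2% of the 198 detected on all arrays. Since the arms were picked on this contrast, nothing is read from that count. In row 1 of the slide, which holds the control arrays and model array 1, miR-31a-5p was 3.06 higher on the log2 scale on model array 1 than the mean of the control arrays, or 8.34-fold. MiR-31a-3p was 1.17 higher there, with the control arrays held at the floor. Row 2 holds model arrays only, so no comparison can be made within it.

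Single spots gave the same order. The brighter probe of miR-31a-5p had 24 spots in each group, with processed signals of 6.62 to 21.9 on the control arrays and 83.1 to 190 on the model arrays. Of the control spots, 16 of 24 were well above background by the flag of the scanner software, against 24 of 24 of the model spots. For the brighter probe of miR-31a-3p, the spots ran from -2.91 to 5.15 on the control arrays and from 6.92 to 18.7 on the model arrays, and 24 of 24 model spots were above the highest control spot. Well above background were 0 of 24 control spots and 22 of 24 model spots. The dimmer probe of miR-31a-3p was less clear, with 19 of 24 model spots above the highest control spot. Spots of 1 array share its RNA and are not replicates.

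**Figure D2:**
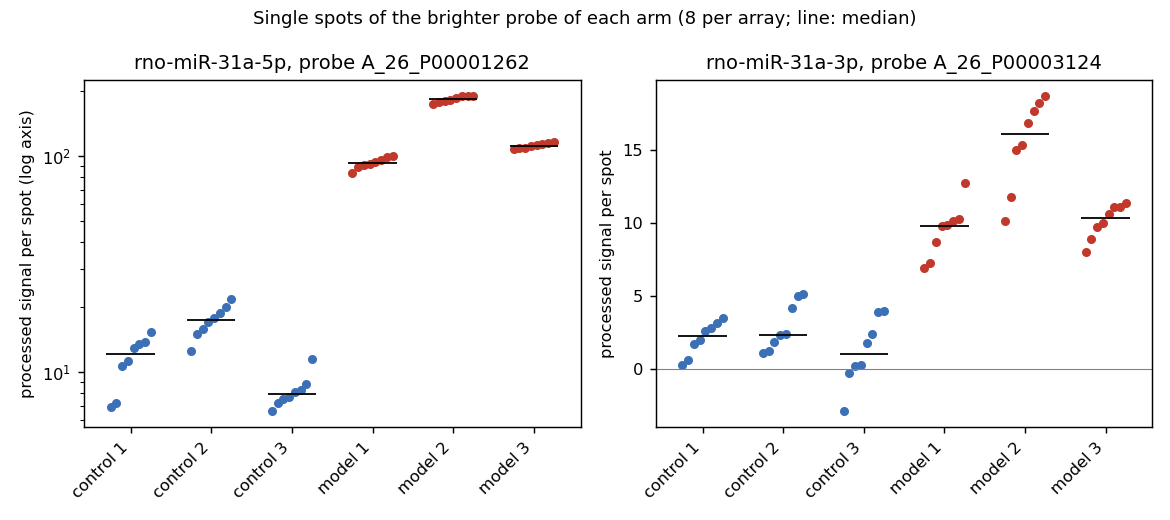
Processed signal of each of the 8 spots per array of the brighter probe of miR-31a-5p (left, log axis) and miR-31a-3p (right, linear axis), with the median as a line. For miR-31a-5p the control spots reach 21.9 and the model spots begin at 83.1, and for miR-31a-3p the control spots reach 5.15 and the model spots begin at 6.92.

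MiR-31b, the complement of miR-31a-5p, was detected on 0 of 6 arrays. The signals of its 2 probes ran from -0.11 to 0.68 on the control arrays and from -0.030 to 0.59 on the model arrays. The highest reading was 0.72 times its error. Of the 24 model spots of each probe, 0 were well above background. At this limit of detection, a signal from the opposite strand of the locus could not be seen in either group.

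The arms shared an order among the rats of the model group. With all probes summed and each array scaled, the signal of miR-31a-5p on model array 2 was 2.04 times that on model array 1, and that of miR-31a-3p 1.80 times. On model array 3 the ratios were 1.43 and 1.29. Both arms were thus highest on model array 2 and lowest on model array 1. This is a description of 3 arrays.

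The arrays of a group differed more in miR-31a-5p than in most miRNAs. Its SD between arrays, pooled over both groups, was 0.58 log2 units, against a median of 0.17 over the 198 miRNAs detected on all arrays, and ranked 9 among them. The number of detected probes varied between arrays for 24 of the 198, miR-31a-5p included. With all probes summed, its SD was 0.44 in the control group in place of 0.65, and 0.51 in the model group, as before. The pooled SD was then 0.48, which ranked 4, against a median of 0.16. With the brightest probe of each miRNA alone, it was 0.47 and again ranked 4. For miR-31a-3p, the SD in the model group was 0.74 with detected probes and 0.43 with all probes summed. With 1 array per rat, differences between rats cannot be told apart from those of the measurement. On the control arrays the probes of miR-31a-5p stood at only 1.64 to 6.74 times their error, against a limit of 3.

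**Figure D3:**
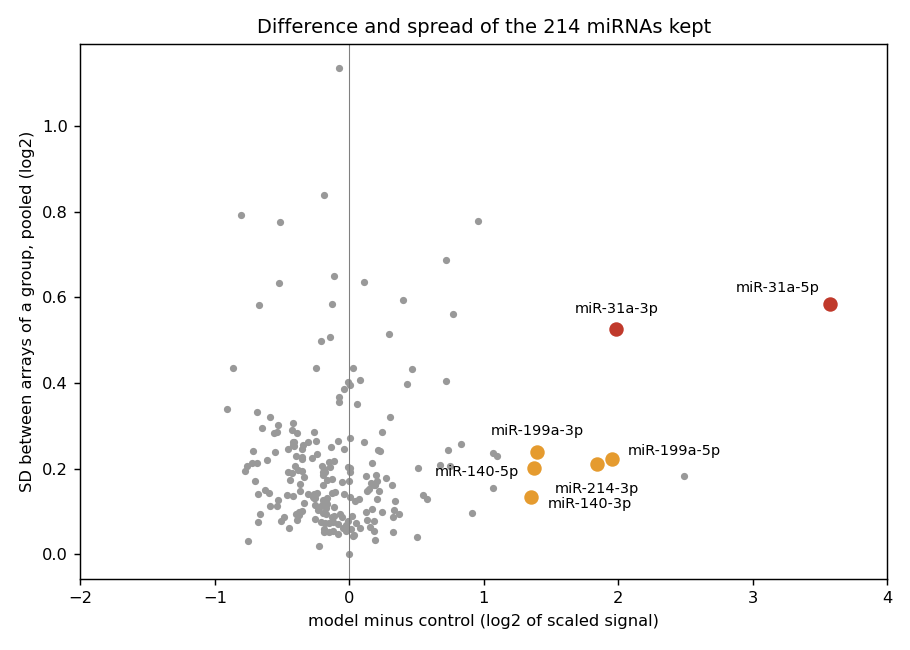
Difference between the groups (log2 of scaled signal, horizontal) against the pooled SD between arrays of a group (log2, vertical) for the 214 miRNAs kept; red points are the miR-31a arms and orange points the 5 miRNAs nearest to the profile of miR-31a-5p. MiR-31a-5p stands alone at 3.57 with an SD of 0.58, and miR-31a-3p is drawn with its control arrays at the floor.

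The 5 miRNAs whose profile over the 6 arrays was nearest to that of miR-31a-5p were miR-199a-5p, miR-214-3p, miR-199a-3p, miR-140-5p and miR-140-3p. Likeness was taken as the root mean square distance between log2 profiles, each centred on its own mean. The distances were 0.90, 0.96, 1.14, 1.15 and 1.19, against a median of 1.93 over 197 miRNAs, and the root mean square of the centred profile of miR-31a-5p itself was 1.85. Their differences between the groups were 1.95, 1.84, 1.40, 1.37 and 1.35. Since the profile of miR-31a-5p is mostly the step between the groups, a higher level in the model group was fixed by this choice. MiR-199a and miR-214 are known from fibroblasts and miR-140 from cartilage.

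**Figure D4:**
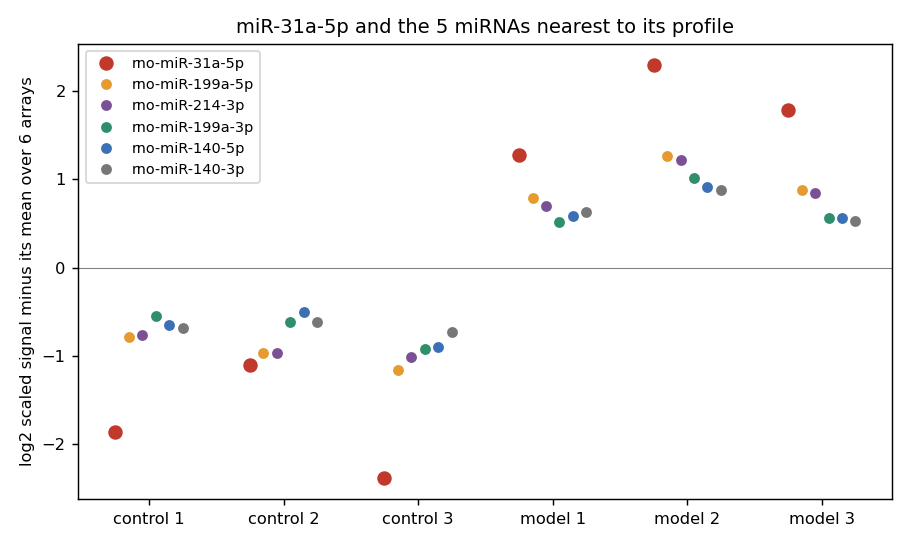
Log2 scaled signal minus its own mean over the 6 arrays for miR-31a-5p (large red points) and the 5 miRNAs nearest to its profile, with arrays on the horizontal axis and points of an array set side by side. All 6 miRNAs are below 0 on the control arrays and above 0 on the model arrays, and miR-31a-5p spans the widest range.

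Within the groups, miR-31a-5p ran in the order array 2, 1, 3 from high to low among the control rats and 2, 3, 1 among the model rats. Of the other 197 miRNAs detected on all arrays, 71 had that order in the control group, 52 in the model group and 20 in both. Among the 20 were miR-195-5p, miR-27b-3p, let-7c-5p and miR-27a-3p, and none of the 5 nearest miRNAs. These 4 were chosen after their values were seen.

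Markers of other cell types were set beside these levels. Over the 214 miRNAs compared with limma, 10.3% were called higher and 12.6% lower in the model group at an adjusted p under 0.05 (Benjamini-Hochberg), and the median difference was -0.14. The epithelial list (miR-200a, miR-200b, miR-200c, miR-141, miR-429, miR-203a, miR-205 and miR-375) had 0 of 8 miRNAs detected on any array, so its summed level was 0 in both groups. MiR-31 is also studied in T cells, and the leukocyte list had 6 of 7 miRNAs measured, 2 called higher and 1 lower, with a median difference of 0.037. MiR-155-5p, of activated leukocytes, was higher by 1.07 (limma adjusted p = 0.0127), and miR-146b-5p by 0.75 (limma adjusted p = 0.0217). The study had itself selected miR-155-5p on these arrays, so it is not independent evidence of a direction. Its summed signal on control arrays 1 to 3 was low, at 3.38, 5.69 and 3.04. MiR-150-5p, abundant in resting lymphocytes, fell by 0.60 (limma adjusted p = 0.0178). MiR-142-3p, found in most blood-forming cells, differed by -0.073 and miR-223-3p, of myeloid cells, by 0.15, and neither passed the test. The summed leukocyte level, in multiples of the array's 75th percentile, ran from 2.92 to 3.56 in the control rats and from 2.15 to 2.63 in the model rats. Most of that sum came from miR-150-5p and miR-146a-5p. In scanner units miR-150-5p read 239, 356 and 252 on the control arrays, against 221, 205 and 224 on the model arrays. MiR-146a-5p read 117, 203 and 102, against 103, 147 and 111, and its difference of -0.42 did not pass the test. The calls of this list were few and moved with single arrays and with the processing. Under normexp the list had 0 called higher and 2 lower by limma, and the same counts when p was not adjusted. Without control array 1 it had 0 called higher and 0 lower by limma, with 2 higher and 1 lower when p was not adjusted, and without control array 3 or model array 2 it had 1 higher and 0 lower. The median difference was above 0 in 14 of 19 alternatives.

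The fibroblast or matrix list had 4 of 6 miRNAs called higher and 0 lower, and a median difference of 1.25. The 4 were miR-21-5p, miR-199a-5p, miR-199a-3p and miR-214-3p, which the study had itself selected on these arrays, so they are not independent evidence of a direction. MiR-145-5p and miR-143-3p, known from smooth muscle, both differed by -0.17 and did not pass the test. The summed level of the list ran from 8.89 to 11.3 in the control rats and from 15.6 to 19.1 in the model rats. Of the cardiomyocyte list, 5 of 6 miRNAs were measured and the muscle miRNAs miR-1-3p, miR-133a-3p and miR-133b-3p were detected on all 6 arrays, as heart muscle would have them. The list had 0 called higher and 3 lower, with a median difference of -0.72. MiR-1-3p fell by 0.76 (limma adjusted p = 0.0203), while miR-499-5p differed by -0.69 and miR-208a-3p by -0.87 without passing the test. The summed level ran from 114 to 138 in the control rats and from 60.9 to 85.1 in the model rats. MiR-208b-3p was not detected on any array. Both endothelial miRNAs, miR-126a-3p and miR-126a-5p, were called lower, with a median difference of -0.54 and summed levels of 8.16 to 9.17 in the control rats, against 5.98 to 6.66 in the model rats. Of the red blood cell list 2 of 3 miRNAs were measured and 1, miR-486, was called lower, with a median difference of -0.60 and summed levels of 1.79 to 2.10 and 1.13 to 1.43 in the same order. Without scaling between arrays, 0 miRNAs in all were called lower by limma, and 4 at an unadjusted p under 0.05, while the 4 fibroblast or matrix calls were made there too. The fibroblast or matrix list had 4 called higher whichever array was left out. When the slide row was a term, the fibroblast or matrix list had 3 called higher, the endothelial list 1 lower, and the cardiomyocyte, leukocyte and red blood cell lists 0 in either direction by limma. When p was not adjusted, these last had 2 cardiomyocyte miRNAs lower, 2 leukocyte miRNAs higher and 2 lower, and 1 red blood cell miRNA lower. The cardiomyocyte list had 0 called lower by limma without control array 1, control array 3 or model array 1 (3, 5 and 4 when p was not adjusted), 1 without control array 2 and 2 without model array 2. With the replicate number as a block or the totals as deposited, the list also had 0 called lower by limma. The methods' t-test, adjusted, gave 0 as well, and each of these settings gave 3 when p was not adjusted. The list had 1 lower with quantile normalization or the authors' values, and 4 with normexp or the percentile of all miRNAs. Its median difference stayed below 0 in all 19 alternatives, from -0.85 to -0.38. Without control array 1 the endothelial list had 0 called lower (2 when p was not adjusted) and the red blood cell list 0 (1 when p was not adjusted), while without control array 2 the red blood cell list had 2. The part of any cell type in the levels of miR-31a was not tested.

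The processing changed the size of the miR-31a difference. Its direction was largely set beforehand, since both arms were chosen for their rise on these arrays. The total signal that the authors deposited for miR-31a-3p on model array 1 was 13.9, where its own detected probe gave 5.05. The rest, 8.89, equals the total of miR-3102, which precedes it among the detected miRNAs by name, on that array. For miR-31a-5p the deposited totals equal the rebuilt sums on all 6 arrays. Both equalities hold within a relative tolerance of 0.0001. In the authors' normalized log2 values, whose centring is not known, miR-31a-5p was at 2.93, 3.52 and 2.50 in the control rats, against 5.96, 6.71 and 6.52 in the model rats, a difference of 3.41. MiR-31a-3p was at -3.22, -3.30 and -3.25, against 2.34, 3.59 and 3.10, a difference of 6.27. Its control values equal those of miR-31b and the median of all miRNAs on the same arrays, a common value of miRNAs that were not detected, so the 6.27 is no measured fold.

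**Figure D5:**
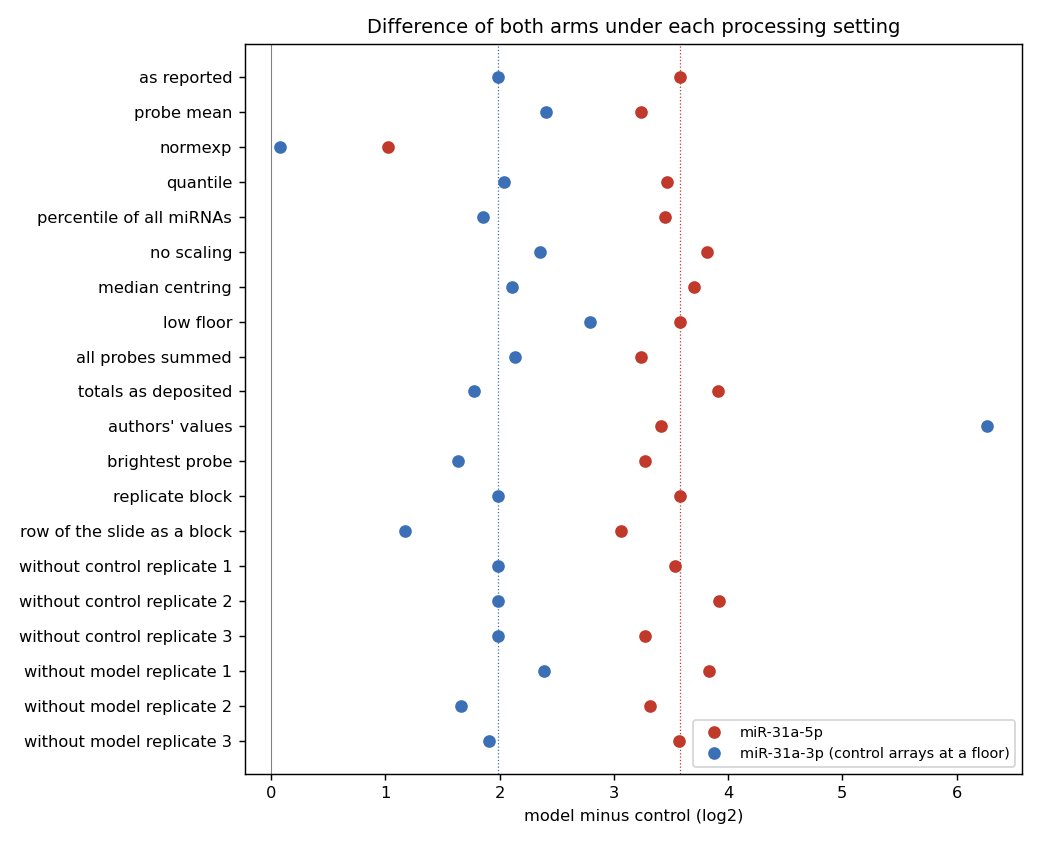
Difference between the groups (log2, horizontal) for both arms of miR-31a under each processing setting, with a dotted line at the value as reported. Both arms, chosen for their rise on these arrays, are above 0 in all settings, with 1.02 and 0.079 under normexp. MiR-31a-3p reaches 6.27 in the authors' values. Where its control arrays stand at a floor, its difference cannot fall below 0.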

How the data were processed

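Total RNA of the myocardium of 3 control and 3 model rats was measured on Agilent Rat miRNA arrays. The authors deposited the intensity values of Agilent Feature Extraction 10.7.1.1, background-subtracted and not scaled between arrays, and normalized log2 values whose method is not given in the sources used here. Groups and replicate numbers were taken from the labels.

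The signal of a miRNA was the sum of probes over 3 times their error. It was scaled to the array's 75th percentile over 198 miRNAs that every array detected, floored at -6.50 (log2), and compared over 214 miRNAs with limma 3.58.1 in R 4.3.3 (Benjamini-Hochberg, 0.05). The standard error of miR-31a-5p is the moderated one of that fit, with no test. The fit was tested on simulated data. Figures used matplotlib 3.10.9 with Python 3.11.15.

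Named miRNAs are all those of miR-31, the 5 nearest profiles among miRNAs detected on all arrays, and members of the marker lists. Members and lists were chosen with earlier results of these data known. Of the 758 names on the array, 685 matched a mature RefSeq sequence. The number of arrays limits the precision. The staining, qRT-PCR and cell experiments were not analysed here.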

Additional observations from a re-analysis of the deposited data

How the results depend on the processing

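The difference of miR-31a-5p, which was chosen for its rise on these arrays, stayed above 0 in all 19 alternatives. In 18 of them it moved by less than the spread between arrays (0.58). The exception was normexp background correction, with 1.02. Among the 18, the replicate block and the floor of 1 could not move the difference. With 1 array left out at a time it ran from 3.27 to 3.92. The difference of miR-31a-3p, with control arrays at a floor, was 1.99. Leaving out a control array could not move it, since these stood at the same floor. With 1 model array left out, the difference ran from 1.66 to 2.39. It was 0.079 under normexp, whose offset of 50 is added to every spot, 2.79 with a floor of 1, 6.27 in the authors' values and 1.17 with the slide row as a block, which leaves model array 1 alone against the control arrays. The pooled spread of miR-31a-5p ran from 0.45 to 0.70 in its 8 alternatives.

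The number of miRNAs called higher was 22. It was 35 with the totals as deposited, 11 with the slide row as a block, 12 with the replicate number as a block, and 11 to 23 with 1 array left out, lowest without control array 1. Those called lower were 27, and 47 with the percentile of all miRNAs, 16 with quantile normalization or median centring, 14 in the authors' values, 11 with the methods' t-test, 4 with the replicate block, 1 with the totals as deposited, 0 without scaling in limma (4 at an unadjusted p under 0.05) and 3 to 22 with 1 array left out. The replicate block left the differences of both arms as they were. Same-numbered arrays deviated with correlations of -0.26, 0.032 and 0.24 across miRNAs. With so few arrays per group, these values cannot decide whether the numbers pair the rats. A block for slide or scan was not run, since there is 1 of each. The brightest probe alone and the limit of 3 errors for miR-31a-3p were chosen after the values were seen. The cause of these shifts was not tested. Levels near the limit of detection, as for miR-31a-3p, are set by that limit.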
